A study of Mus musculus with 6 samples.

Results

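The genes of the NF-κB transcription factors and of their inhibitors were followed in dermal fibroblasts that had been driven towards adipocytes, in CTL cells and after deletion of Nelfb, a subunit of the NELF complex that holds RNA polymerase II in a paused state near the start of genes. The 10 genes were selected by symbol. They are the 5 subunit genes Rela, Relb, Rel, Nfkb1 and Nfkb2, the IκB genes Nfkbia, Nfkbib and Nfkbie, the nuclear IκB gene Nfkbiz, and Tnfaip3. All 10 were present among the 17924 genes of the deposited table, and all 10 were among the 16252 genes tested. The cells were dorsal dermal fibroblasts of newborn (postnatal day 0) C57BL/6J mice, kept for 14 days in an adipocyte differentiation medium. CTL cells (3 libraries) carried Pdgfra-Cre and either Nelfb fl/wt or Nelfb wt/wt, and Nelfb KO cells (3 libraries) carried Pdgfra-Cre and Nelfb fl/fl. Cre was therefore shared by both groups, so that no library was free of it, and its activity depended on the promoter of Pdgfra, a gene of fibroblasts and adipocyte progenitors. The libraries are described as biological triplicates, and total RNA was sequenced in bulk.

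NF-κB proteins act as dimers of 5 related subunits that share a Rel homology domain for DNA binding. RelA, RelB and c-Rel (the product of Rel) carry a transactivation domain, whereas Nfkb1 and Nfkb2 encode long precursors that are processed to shorter DNA-binding subunits. In resting cells the dimers are kept in the cytoplasm by IκB proteins, until the IKK kinase complex marks IκB for degradation in the canonical pathway. In the noncanonical pathway, the kinase NIK (Map3k14) leads to processing of the Nfkb2 precursor, the usual partner of RelB. Several inhibitors, among them IκBα (Nfkbia) and A20 (Tnfaip3), are themselves induced by NF-κB and form a negative feedback. In skin fibroblasts the pathway is known for its role in cytokine and chemokine production.

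Of the 10 genes, 2 passed an adjusted p of 0.05 between Nelfb KO and CTL cells, both of them IκB genes and both higher in Nelfb KO cells: Nfkbie (IκBε), with a fitted 2.77-fold increase, and Nfkbiz (IκBζ), with a 1.58-fold increase. None of the 5 subunit genes passed with limma, and none with a test gene by gene without moderated variances, while 1 of them (Relb) had an unadjusted p under 0.05. Over all genes tested, 15.8% passed this threshold (9.96% higher and 5.83% lower in Nelfb KO cells), and 11.2% passed it with a change of at least 2-fold, which Nfkbie did as the only 1 of the 10. The 3 libraries of one group lay wholly above those of the other for 5 of the 10 genes, 4 of them higher and Relb lower in Nelfb KO cells, where 38.1% of all genes tested did not overlap (22% higher and 16.1% lower). The share of the 10 that passed was thus near that of all genes. Their median log2 fold change was 0.14, beside 0.07 over all genes tested. None of the 10 passed without CTL replicate 1, CTL replicate 2, Nelfb KO replicate 2 or Nelfb KO replicate 3, each left out on its own. Without CTL replicate 3, 4 of them passed. With 1 library left out, the count over all genes tested lay between 434 and 3668.

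The start regions of these genes are shown first, since a κB site near the start is the letter code that NF-κB dimers bind and bears on the feedback described above. RefSeq start regions (GRCm38.p6, 250 bases before to 50 after the annotated start) were matched by symbol for 7 of the 10 genes, that is for all but Relb, Nfkb1 and Nfkbiz. A match to the 10-base κB consensus on either strand was found in 5 of the 7 (Rel, Nfkb2, Nfkbia, Nfkbie and Tnfaip3) and not in Rela or Nfkbib. Among all 27025 genes with such a region, 5.14% held a match. The consensus is nearly palindromic, and in Rel and Nfkb2 matches on both strands overlapped by all but 1 base, so that they are shown as 1 stretch. Beside each gene, 1 window is given 5′ to 3′ on the strand of the gene, with the match in capitals.
Rel (chr11:23771041-23771071, minus strand, 92 bases before the start): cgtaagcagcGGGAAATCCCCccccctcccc
Nfkb2 (chr19:46304688-46304718, plus strand, 39 bases before the start): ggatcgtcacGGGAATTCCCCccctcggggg
Nfkbia (chr12:55492657-55492686, minus strand, 29 bases before the start): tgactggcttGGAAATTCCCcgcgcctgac
Nfkbie (chr17:45555584-45555613, plus strand, 106 bases before the start): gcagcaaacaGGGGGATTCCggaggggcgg
Tnfaip3 (chr10:19015403-19015432, minus strand, 12 bases before the start): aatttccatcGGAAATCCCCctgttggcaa
Nfkb2 held further matches near this and its other annotated starts, and Tnfaip3 held another one 125 bases before its start. For Nfkbie, the gene with the largest change of the 10, the whole start region of 300 bases (chr17:45555450-45555749, plus strand) is given, with the same match in capitals.
Nfkbie start region: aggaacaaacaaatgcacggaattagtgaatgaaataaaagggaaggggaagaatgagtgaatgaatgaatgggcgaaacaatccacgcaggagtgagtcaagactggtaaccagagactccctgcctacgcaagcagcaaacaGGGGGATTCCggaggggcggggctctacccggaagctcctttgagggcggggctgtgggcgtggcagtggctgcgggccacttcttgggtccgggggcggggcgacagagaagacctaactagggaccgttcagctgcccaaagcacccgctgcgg
A match is a stretch of letters only, and binding was not measured in these libraries.

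The libraries held 17.2 to 29.4 M reads (M, 1e+06) on the listed genes, a depth derived from the size of the smallest steps in the values, and 3 reads, taken as the floor, were worth 0.102 to 0.175 CPM, the counts of a gene per 1e+06 counts on all listed genes. Values of single libraries are given in the order of replicates 1, 2 and 3. For Nelfb itself the 3 CTL libraries held 17.3, 19.6 and 22.3 CPM, the 3 Nelfb KO libraries 5.50, 3.90 and 5.55 CPM (log2 fold change -1.99, SE 0.22, limma, adjusted p = 0.0050). Nelfb RNA thus remained detectable, at 0.252 times the CTL mean. Adipocyte markers, 9 of 9 in the table, summed to 26101 to 42637 CPM in CTL and 17548 to 25647 CPM in Nelfb KO libraries, and 10 fibroblast and progenitor markers to 4372 to 16861 and 8258 to 33029 CPM. Of the adipocyte markers, 1 passed higher (Lep) and 1 lower (Retn) in Nelfb KO cells, and the other 7 did not pass. CTL replicate 3 had the lowest adipocyte sum and the highest fibroblast sum of its group. Nelfb KO replicate 1 had the lowest adipocyte sum (17548 CPM) and the lowest fibroblast sum (8258 CPM) of its group. Markers of macrophages and monocytes moved with the groups: all 14 were present, and 13 of them passed the test and were higher in Nelfb KO cells. Their sum came to 907, 483 and 249 CPM in the CTL libraries against 7473, 2345 and 3953 CPM in the Nelfb KO libraries. Among them Csf1r, the receptor that macrophages need for survival, lay at 12.3 to 22.6 CPM in CTL and 87 to 206 CPM in Nelfb KO libraries, and the pan-leukocyte marker Ptprc at 2.86 to 9.11 and 16.9 to 71.3 CPM. Melanocyte markers (1.22 to 1.43 against 30.3 to 72.1 CPM), Schwann cell markers (26 to 30.7 against 117 to 153 CPM) and skeletal muscle markers (6.91 to 9.21 against 42.3 to 68.6 CPM) were also higher in each Nelfb KO library than in each CTL library, as were keratinocyte markers (2.79 to 3.45 against 7.11 to 15.1 CPM). Endothelial markers overlapped (7.04 to 11.8 against 8.44 to 22 CPM), mast cell markers stayed at or below 3.56 CPM, and none of 9 T and B lymphocyte markers was in the table. In bulk RNA, more cells of a type and more RNA per cell cannot be told apart, and the part of other cell types in the values below was not tested.

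**Figure D1:**
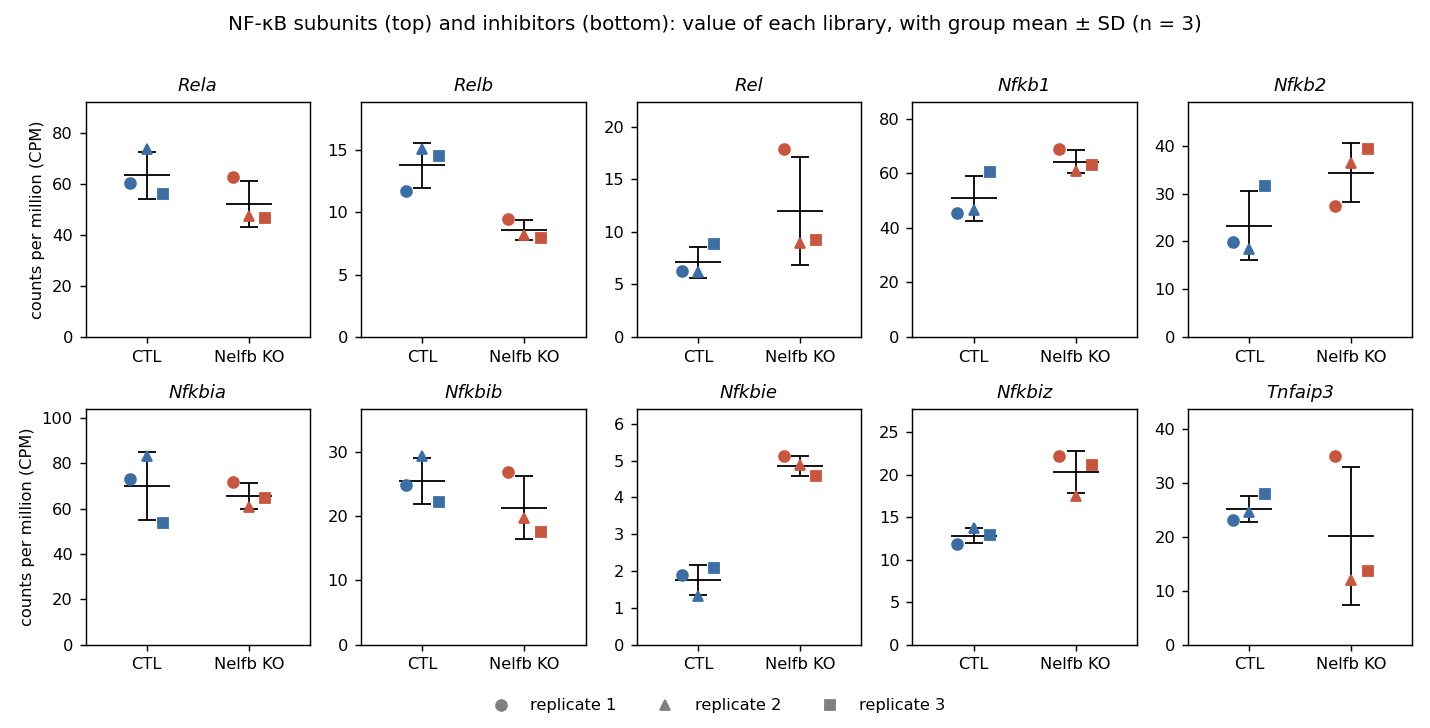
CPM of the 10 NF-κB genes in each library (points, shape by replicate number) with the group mean and SD (n = 3), the subunits in the upper and the inhibitors in the lower row, each y axis from 0. Nfkbie and Nfkbiz lay higher in all 3 Nelfb KO libraries, and Relb lay lower in all 3. Rel, Nfkb1, Nfkbie, Nfkbiz and Tnfaip3 were highest in Nelfb KO replicate 1.

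For Rela (ENSMUSG00000024927, chr19:5637483-5648130, plus strand), which encodes the main subunit of canonical dimers, CTL replicates 1 to 3 gave 60.5, 74.0 and 56.0 CPM, and Nelfb KO replicates 1 to 3 gave 62.8, 47.7 and 46.6 CPM. The groups overlapped, with Nelfb KO replicate 1 above CTL replicates 1 and 3. On the log2 scale the change was -0.28 (95% interval -0.71 to 0.15, limma, adjusted p = 0.33), so that a 2-fold change in either direction lay outside the interval. It was -0.17 without CTL replicate 2 and -0.42 without Nelfb KO replicate 1.

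For Relb (ENSMUSG00000002983, chr7:19606217-19629438, minus strand), the subunit of the noncanonical pathway, the 3 CTL libraries held 11.7, 15.1 and 14.5 CPM, the 3 Nelfb KO libraries 9.48, 8.21 and 7.96 CPM. All 3 Nelfb KO libraries lay below all 3 CTL libraries, and Relb was the only 1 of the 10 genes with this order. Nelfb KO differed from CTL by -0.68 in log2 (SE 0.18, adjusted p = 0.0505 by limma), which missed the threshold narrowly. It passed in 5 of 17 alternatives, among them both other scalings between libraries (adjusted p = 0.036 and 0.028, limma) and the fit without Nelfb KO replicate 1 (adjusted p = 0.045). Over all 17 the direction was the same and adjusted p lay between 0.028 and 0.19, highest without Nelfb KO replicate 3.

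For Rel (ENSMUSG00000020275, chr11:23736847-23770970, minus strand), whose product c-Rel is best known from lymphocytes and myeloid cells, CTL replicates 1 to 3 gave 6.31, 6.21 and 8.81 CPM, and Nelfb KO replicates 1 to 3 gave 17.9, 8.91 and 9.18 CPM. The groups did not overlap, but the highest CTL library and the lowest Nelfb KO library were close, and Nelfb KO replicate 1 stood apart. The change of 0.69 in log2 (SE 0.32, adjusted p = 0.20 by limma) did not pass, and without Nelfb KO replicate 1 it was 0.36 (adjusted p = 0.29). That library also had the highest macrophage marker sum (7473 CPM) and the lowest fibroblast sum of its group (8258 CPM). The part of either in the value of Rel was not tested.

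For Nfkb1 (ENSMUSG00000028163, chr3:135584655-135691547, minus strand), which encodes the precursor of the usual partner of RelA, the 3 CTL libraries held 45.6, 46.6 and 60.4 CPM, the 3 Nelfb KO libraries 69.1, 60.8 and 63.2 CPM. The groups did not overlap, although CTL replicate 3 reached almost the level of Nelfb KO replicate 2. The fitted change was 0.35 on the log2 scale (95% interval -0.02 to 0.72, adjusted p = 0.17 by limma), or 0.48 (adjusted p = 0.042) when CTL replicate 3 was omitted.

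For Nfkb2 (ENSMUSG00000025225, chr19:46304320-46312385, plus strand), the precursor gene of the noncanonical pathway, CTL replicates 1 to 3 gave 19.9, 18.5 and 31.5 CPM, and Nelfb KO replicates 1 to 3 gave 27.4, 36.4 and 39.4 CPM. The groups overlapped, since CTL replicate 3 lay above Nelfb KO replicate 1. On the log2 scale the change was 0.59 (95% interval -0.02 to 1.20, adjusted p = 0.16 by limma), or 0.83 (adjusted p = 0.036) when CTL replicate 3 was omitted. Psd and AC114539.1, on the opposite strand, share 6.52% and 11.6% of the exon bases of Nfkb2, and whether counting used the strand is not given in the sources used here. The precursor genes Nfkb1 and Nfkb2 thus passed the threshold in the fit without the CTL library that stood apart in its adipocyte and fibroblast markers, and not with all 6 libraries. In that fit the count of all genes that passed was also higher, 3668 against 2566 with all libraries.

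**Figure D2:**
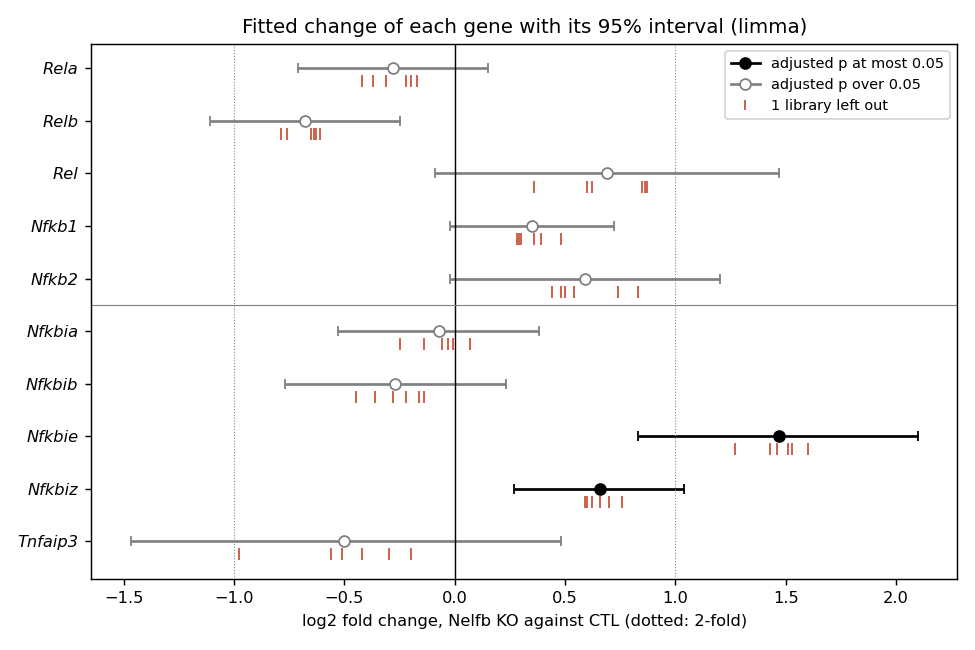
Fitted log2 fold change (Nelfb KO against CTL, x axis) of each gene with its 95% interval (circles and bars, filled where the adjusted p was at most 0.05) and the 6 values with 1 library left out (red ticks). The intervals of Nfkbie, Nfkbiz and Relb lie on 1 side of 0, and Tnfaip3 has the tick farthest from its circle, at -0.98.

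Among the inhibitors, for Nfkbia (ENSMUSG00000021025, chr12:55489410-55492647, minus strand), which encodes the feedback inhibitor IκBα, the 3 CTL libraries held 73.0, 83.1 and 53.7 CPM, the 3 Nelfb KO libraries 71.8, 60.5 and 64.6 CPM. All 3 Nelfb KO libraries lay within the range of the CTL libraries. Nelfb KO differed from CTL by -0.07 in log2 (95% interval -0.53 to 0.38, limma, adjusted p = 0.83), and it turned to 0.07 without CTL replicate 2.

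For Nfkbib (ENSMUSG00000030595, chr7:28758251-28767512, minus strand), which encodes IκBβ, CTL replicates 1 to 3 gave 24.9, 29.4 and 22.3 CPM, and Nelfb KO replicates 1 to 3 gave 26.9, 19.7 and 17.5 CPM. The groups overlapped, with Nelfb KO replicate 1 the second highest of the 6. The fitted change was -0.27 in log2 (95% interval -0.77 to 0.23, limma, adjusted p = 0.42), and it was -0.14 without Nelfb KO replicate 3, -0.16 without CTL replicate 2 and -0.45 without Nelfb KO replicate 1. Ccer2 and Sirt2, on the opposite strand, share 14.5% and 1.94% of its exon bases.

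Nfkbie (ENSMUSG00000023947, chr17:45555703-45563169, plus strand), which encodes IκBε, an inhibitor that holds RelA and c-Rel dimers, rose. The 3 CTL libraries held 1.89, 1.31 and 2.07 CPM, the 3 Nelfb KO libraries 5.12, 4.89 and 4.57 CPM, a mean of 1.76 ± 0.401 (SD, n = 3) against 4.86 ± 0.277 CPM (SD, n = 3). The lowest Nelfb KO library was above the highest CTL library by more than the spread within either group. The fitted change was 1.47 on the log2 scale (SE 0.27, 95% interval 0.83 to 2.10, limma, adjusted p = 0.017), and the exact two-sided permutation p was 0.1, the smallest that 3 against 3 libraries allow. Nfkbie was the least abundant of the 10 genes, with 28 reads in its lowest library. Its log2 fold change lay between 1.10 and 1.6 in all 17 alternatives and passed in 13 of them. The 4 that missed each left out 1 library, with adjusted p (limma) of 0.058 without CTL replicate 1, 0.059 without CTL replicate 2, 0.065 without Nelfb KO replicate 2 and 0.08 without Nelfb KO replicate 3. The macrophage marker sum was also higher in every Nelfb KO library, and its part was not tested. In CTL replicates 1, 2 and 3, that sum was 907, 483 and 249 CPM at 1.89, 1.31 and 2.07 CPM of Nfkbie. In the Nelfb KO replicates it was 7473, 2345 and 3953 CPM at 5.12, 4.89 and 4.57 CPM of Nfkbie.

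Nfkbiz (ENSMUSG00000035356, chr16:55811375-55838899, minus strand), which encodes IκBζ, a nuclear protein that acts on a subset of NF-κB targets, also rose. CTL replicates 1 to 3 gave 11.9, 13.7 and 12.9 CPM, and Nelfb KO replicates 1 to 3 gave 22.2, 17.5 and 21.2 CPM, and the groups did not overlap. The mean was 12.8 ± 0.911 (SD, n = 3) in CTL and 20.3 ± 2.51 CPM (SD, n = 3) in Nelfb KO cells. On the log2 scale the change was 0.66 (SE 0.16, adjusted p = 0.041 by limma), below the 2-fold limit. The call was not stable: Nfkbiz passed in 7 of 17 alternatives, with the same direction in all 17, a log2 fold change of 0.52 to 0.76 and adjusted p of 0.039 to 0.17. Its Nelfb KO values had the order of the macrophage sum, with replicate 1 highest and replicate 2 lowest, whereas its CTL values did not, and the part of macrophage RNA was not tested.

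Tnfaip3 (ENSMUSG00000019850, chr10:19000910-19015657, minus strand) encodes A20, a ubiquitin-editing enzyme that ends signalling upstream of IKK. The 3 CTL libraries held 23.1, 24.7 and 27.9 CPM, the 3 Nelfb KO libraries 35, 11.9 and 13.6 CPM. Nelfb KO replicate 1 lay above all CTL libraries and the other two Nelfb KO libraries below all of them, so that the SD was 12.9 CPM in Nelfb KO and 2.42 CPM in CTL cells. Nelfb KO differed from CTL by -0.50 in log2 (95% interval -1.47 to 0.48, adjusted p = 0.44 by limma), or -0.98 (adjusted p = 0.018) when Nelfb KO replicate 1 was omitted, a fit in which 2951 of all genes passed against 2566 with all libraries. It was -0.20 (adjusted p = 0.81) without Nelfb KO replicate 2 and -0.30 (adjusted p = 0.75) without Nelfb KO replicate 3. Nelfb KO replicate 1 had the highest macrophage marker sum of the 6 libraries and the lowest fibroblast sum of its group (8258 CPM). The part of either in the value of Tnfaip3 was not tested.

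**Figure D3:**
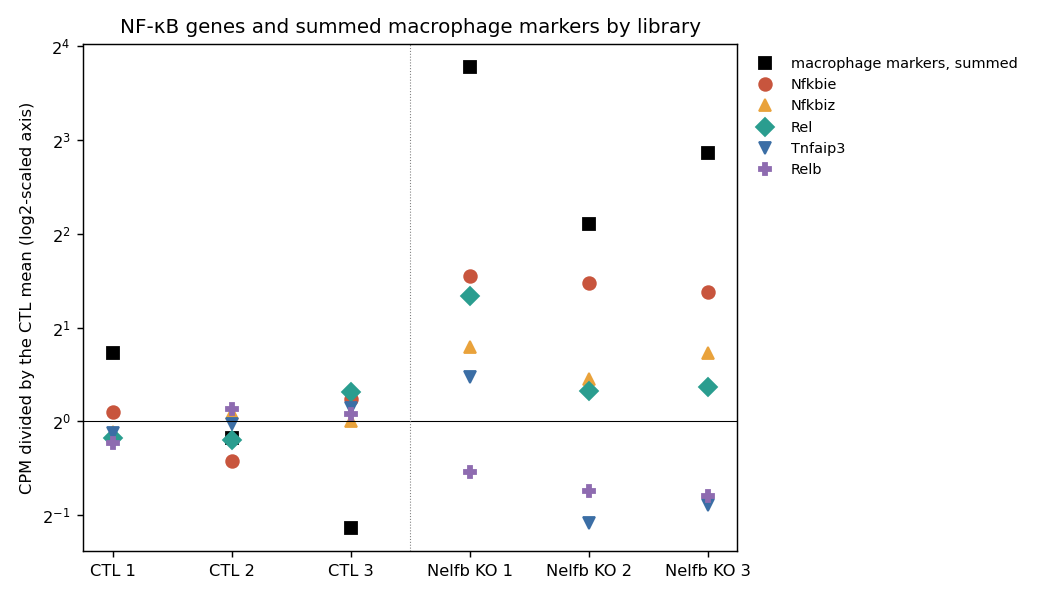
CPM of Nfkbie, Nfkbiz, Rel, Tnfaip3 and Relb and the summed CPM of 14 macrophage markers, each divided by its CTL mean (y axis on a log2 scale), in each library (x axis). The macrophage sum differs widely among the Nelfb KO libraries. In Nelfb KO replicate 1, where the sum is highest, each gene shown is highest of its group, Rel and Tnfaip3 by the most. The part of macrophage RNA in these values was not tested.

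Levels between genes were compared as CPM per kb of merged exons. In CTL cells the order was Nfkbia (43.4 ± 9.30, SD, n = 3), Rela (20.7 ± 3.05) and Nfkbib (11.8 ± 1.65), whose ranges did not overlap, followed by Nfkb2 (5.08 ± 1.56), Nfkb1 (4.22 ± 0.684), Relb (3.54 ± 0.458) and Tnfaip3 (3.49 ± 0.335). From Nfkb2 to Tnfaip3, each gene overlapped with the next over the 3 libraries. Nfkbiz (2.55 ± 0.182), Rel (0.952 ± 0.197) and Nfkbie (0.577 ± 0.132) followed without overlap. In Nelfb KO cells the order was Nfkbia (40.8 ± 3.55), Rela (17 ± 2.95), Nfkbib (9.86 ± 2.28), Nfkb2 (7.51 ± 1.36), Nfkb1 (5.34 ± 0.355), Nfkbiz (4.04 ± 0.5), Tnfaip3 (2.79 ± 1.79), Relb (2.20 ± 0.211), Rel (1.61 ± 0.687) and Nfkbie (1.6 ± 0.091). There Nfkbib and Nfkb2 overlapped, as did Nfkbiz, Tnfaip3, Relb, Rel and Nfkbie each with the next. The place of Nfkb1 depended on the length used, because its merged exons span 12061 bases and its longest transcript 4149 bases: per kb of the longest transcript it stood at 12.3 in CTL and 15.5 in Nelfb KO cells.

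The relative makeup of the subunit RNA was taken as the share of each gene in the summed CPM per kb of the 5 subunits, a measure that does not change with a scaling by 1 factor per library. The sum itself was 31.7 to 36.7 in CTL and 31.8 to 37.0 CPM per kb in Nelfb KO libraries and overlapped. The share of Relb was 9.53%, 10.6% and 10.6% in CTL and 6.60%, 6.64% and 6.35% in Nelfb KO replicates 1, 2 and 3, with no overlap. The share of Nfkb1 was 11.9%, 10.5% and 14.3% in CTL and 15.5%, 15.8% and 16.2% in Nelfb KO libraries, also with no overlap. That of Rel was 2.67%, 2.27% and 3.37% against 6.49%, 3.75% and 3.81%. For these 3 shares the exact two-sided permutation p was 0.1, the smallest that the design allows, and the groups were also apart when the longest transcript was used. With that length the share of Nfkb1 was larger, 23% to 29.7% in CTL and 31.9% to 32.9% in Nelfb KO libraries, and second to that of Rela. The share of Rela (62.2%, 65.7% and 52.1% against 55.3%, 48.8% and 47.0%) and that of Nfkb2 (13.7%, 11% and 19.6% against 16.2%, 25% and 26.7%) overlapped (exact permutation p = 0.2 for each). Relb, the partner of the Nfkb2 product, thus had a smaller share in each Nelfb KO library than in each CTL library, whereas the shares of Nfkb2 overlapped. Among the 3 classical IκB genes, Nfkbie made up 1.08%, 0.654% and 1.54% in CTL and 2.86%, 3.32% and 3.02% in Nelfb KO libraries, with no overlap (exact permutation p = 0.1), and Nfkbia made up 75.3% to 78.9% and 76.0% to 80.8%.

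**Figure D4:**
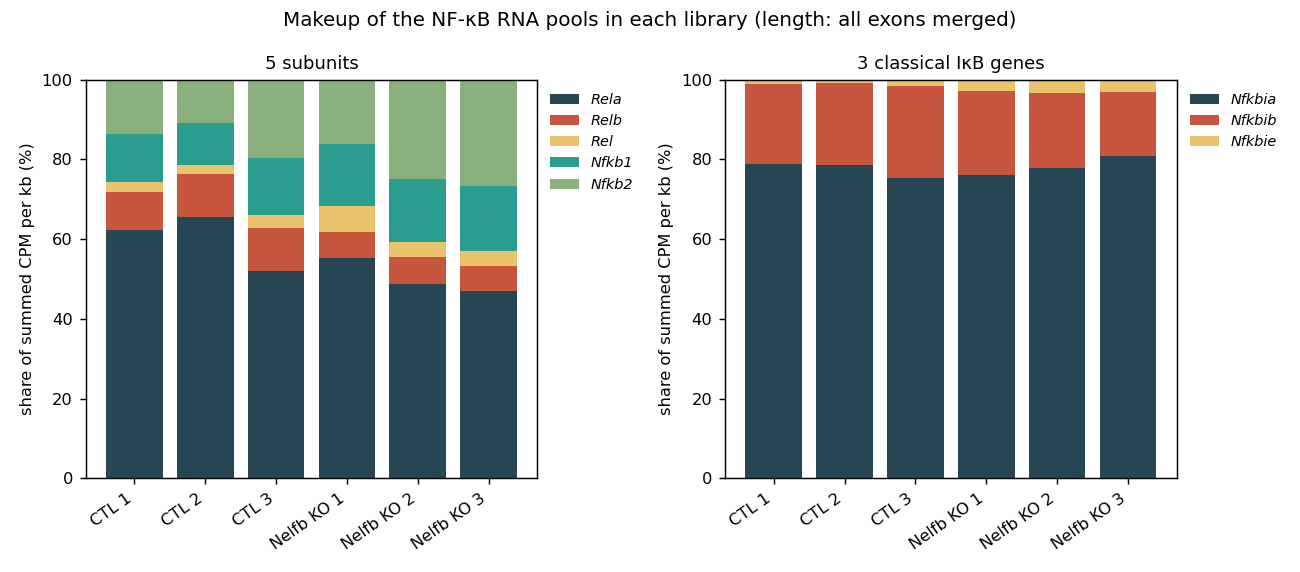
Share (%, y axis) of each gene in the summed CPM per kb of merged exons of the 5 subunits (left) and of Nfkbia, Nfkbib and Nfkbie (right), 1 bar for each library. The Relb segment is 6.35% to 6.64% in Nelfb KO and 9.53% to 10.6% in CTL libraries, and Nfkbie stays at or below 3.32% of its pool.

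The other genes of the pathway were taken from lists by role, of which 100 genes were tested. Of these, 20 rose and 3 fell in Nelfb KO cells, with a median log2 fold change of 0.19, beside 0.07 and 15.8% passing over all genes. Receptors, ligands and target genes held 20 of these calls and the genes that carry the signal inside the cell the other 3, and whether these groups differ was not tested. Of the 100 genes, 23 passed with all libraries and 12 with the unmoderated test. With 1 library left out the count was 10 without Nelfb KO replicate 3, 11 without CTL replicate 2, 13 without CTL replicate 1, 14 without Nelfb KO replicate 2 and 31 without CTL replicate 3.

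Of 14 receptors tested, 6 rose and none fell, with a median log2 fold change of 1.27. Among those that passed, the largest increases were in Ngfr, the low-affinity neurotrophin receptor (38.5 ± 17 against 246 ± 42.5 CPM, log2 fold change 2.74, limma, adjusted p = 0.0057), in the death receptor gene Tnfrsf21 (2.38, adjusted p = 0.014), in Tnfrsf11a, the receptor RANK of the osteoclast lineage (1.98, adjusted p = 0.025), and in Tlr2, a receptor for bacterial lipoproteins (1.90, adjusted p = 0.011). Ngfr is also a gene of Schwann cells, whose markers were higher in each Nelfb KO library. Tlr2 and Tnfrsf11a are also macrophage genes, and the part of those cells was not tested. The TNF receptor gene Tnfrsf1a (215, 225 and 217 CPM in CTL, 314, 315 and 276 CPM in Nelfb KO libraries, limma, adjusted p = 0.062) and the IL-1 receptor gene Il1r1 (33.7, 27.3 and 98.4 against 97, 316 and 279 CPM, log2 fold change 2.19, adjusted p = 0.061) did not pass. For Il1r1, CTL replicate 3 lay above Nelfb KO replicate 1. With 1 library left out, 2 to 8 receptors passed, fewest (2) without Nelfb KO replicate 3 and 3 without CTL replicate 2, and 4 passed with the unmoderated test.

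Of 6 ligands tested, 2 rose and none fell, with a median log2 fold change of 1.42. That median was 2.52 without Nelfb KO replicate 1, 0.81 without Nelfb KO replicate 3 and 0.65 with a pseudocount of 1 CPM. They were Il33, an alarmin of the IL-1 family (0.992, 0.747 and 1.22 CPM in CTL against 3.41, 19 and 14.4 CPM in Nelfb KO libraries, log2 fold change 3.28, limma, adjusted p = 0.021), and Tnf, the prototype inducer of the canonical pathway (0.18, 0.187 and 0.136 against 1.14, 0.582 and 0.898 CPM, log2 fold change 2.07, adjusted p = 0.025). Tnf stood close to the floor in CTL, at 4 reads in its lowest library, and its order among the Nelfb KO libraries was that of the macrophage sum. The part of macrophage RNA in Tnf was not tested. The ligand Tnfsf12 (TWEAK, 12 to 15.3 against 16.2 to 29.9 CPM, adjusted p = 0.14) and the RANK ligand Tnfsf11 (0.0451 to 0.0933 against 0.142, 1.86 and 1.71 CPM, adjusted p = 0.085, limma) did not pass. The IL-1β gene Il1b and 4 others of the 11 listed ligands were not in the table. Neither Il33 nor Tnf passed without CTL replicate 1, CTL replicate 2, Nelfb KO replicate 2 or Nelfb KO replicate 3, each left out on its own, and Tnf also did not without Nelfb KO replicate 1. With the unmoderated test 1 ligand passed.

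Between receptor and IκB, 1 of 12 kinases and IKK subunits passed. It was Map3k14, the kinase NIK of the noncanonical pathway, at 9.65, 9.99 and 10 CPM in CTL against 25, 34.1 and 34.5 CPM in Nelfb KO libraries (log2 fold change 1.64, SE 0.18, limma, adjusted p = 0.0048). The 3 CTL values were within 1 CPM of each other and far from the Nelfb KO values. Nelfb KO replicate 1, with the lowest Map3k14 value of its group, had the highest macrophage and the lowest fibroblast sum of that group. The part of either in Map3k14 was not tested. Tab2, an adaptor of the kinase TAK1 (log2 fold change -0.19, adjusted p = 0.49), and Ikbkg, the regulatory IKK subunit NEMO (0.14, adjusted p = 0.77), did not pass. Ikbkg was again highest in Nelfb KO replicate 1, at 136 CPM beside 66.1 and 67.5 CPM. Map3k14 passed with each library left out in turn. In some fits Map3k7 or Tab1, named after their values were seen, also passed. Map3k7, the kinase TAK1 (57.4 to 64.2 against 79.9 to 81.8 CPM, adjusted p = 0.051 by limma), passed without CTL replicate 3, with the unmoderated test, with a pseudocount of 1 CPM and with a filter at 1 CPM. Its adaptor Tab1 passed without Nelfb KO replicate 1 and with both other scalings.

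Of 21 adaptors and ubiquitin ligases, 1 fell and none rose. It was Card10, a scaffold that links receptors to IKK in nonlymphoid cells, at 24.4, 25.5 and 11.5 CPM in CTL against 7.97, 5.3 and 4.32 CPM in Nelfb KO libraries (log2 fold change -1.76, limma, adjusted p = 0.028). Card10 did not pass without CTL replicate 1, CTL replicate 2, Nelfb KO replicate 2 or Nelfb KO replicate 3, or with the unmoderated test. Without Nelfb KO replicate 1, 4 genes of the list passed, and without CTL replicate 3, 3 genes. Sqstm1, the autophagy receptor, overlapped (adjusted p = 0.97), and Irak1, a kinase of the IL-1 and Toll-like receptor pathway, was measured at 85 to 108 and 65.1 to 81.9 CPM (log2 fold change -0.47, adjusted p = 0.093, limma). None of 11 negative regulators of the upstream steps passed in either direction with limma or with the unmoderated test, and 1 had an unadjusted p under 0.05 (Rnf11). Among them the most abundant were Tax1bp1 and Rnf11, both partners of A20, with log2 fold changes of -0.28 (adjusted p = 0.23) and -0.44 (adjusted p = 0.14).

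Among 8 other nuclear IκB-like proteins and modulators, 1 rose: Bcl3, an IκB family member that acts with the products of Nfkb1 and Nfkb2, at 5.82, 5.09 and 10.6 CPM in CTL against 14.6, 18.5 and 16.5 CPM in Nelfb KO libraries (log2 fold change 1.27, limma, adjusted p = 0.037). The median of the list was -0.14, and Bcl3 passed in 1 of the 6 fits with a library left out, that without CTL replicate 3, and not with the unmoderated test. Nkiras2, a Ras-like protein that binds IκBβ (-0.18, adjusted p = 0.41), and Akirin2, a nuclear cofactor of NF-κB (-0.45, adjusted p = 0.22) did not pass.

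Of 28 target genes tested, 10 rose and 2 fell, with a median log2 fold change of 1.06. The largest changes were in Cxcl5, a neutrophil chemokine (0, 0.0933 and 0.51 CPM in CTL against 10.4, 41.8 and 41.5 CPM in Nelfb KO libraries, limma, adjusted p = 0.0079), and in the cytokine gene Il6, which was at or under 3 reads in every CTL library and at 0.853, 2.15 and 2 CPM in Nelfb KO libraries. The Nelfb KO mean of Il6 was at least 13.3-fold higher than the mean CTL floor of 3 reads per library (0.126 CPM; limma, adjusted p = 0.0060). Ccl2, the monocyte chemokine, rose from 2.85 to 9.25 CPM in CTL to 54.3 to 63.6 CPM in Nelfb KO libraries (log2 fold change 3.75, adjusted p = 0.0058, limma), and Ptx3, a pentraxin of innate immunity, from 14.5 to 54.3 CPM to 113 to 373 CPM (3.32, adjusted p = 0.020). The 2 that fell were the complement gene C3 (1222, 1248 and 768 CPM in CTL, 212, 85.9 and 97.3 CPM in Nelfb KO libraries, log2 fold change -3.12, adjusted p = 0.0064) and Ptges, the prostaglandin E synthase (-1.74, adjusted p = 0.0085), both named after their values were seen. C3 is also expressed by adipocytes, whose marker sum was at most 25647 CPM in Nelfb KO and at least 26101 CPM in CTL libraries, with 1 of 9 markers passing lower and 1 higher, and that part was not tested. Csf1, the growth factor of macrophages (adjusted p = 0.060), and the syndecan gene Sdc4 (adjusted p = 0.63, limma), the most abundant of the genes that did not pass, had log2 fold changes of 1.44 and 0.16. With 1 library left out, 7 to 15 targets passed, with 7 without CTL replicate 2 or Nelfb KO replicate 3, and 5 passed with the unmoderated test. With Il6 at its lower bound the median of the list was also 1.06, which could not differ because that bound still lies above the median.

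**Figure D5:**
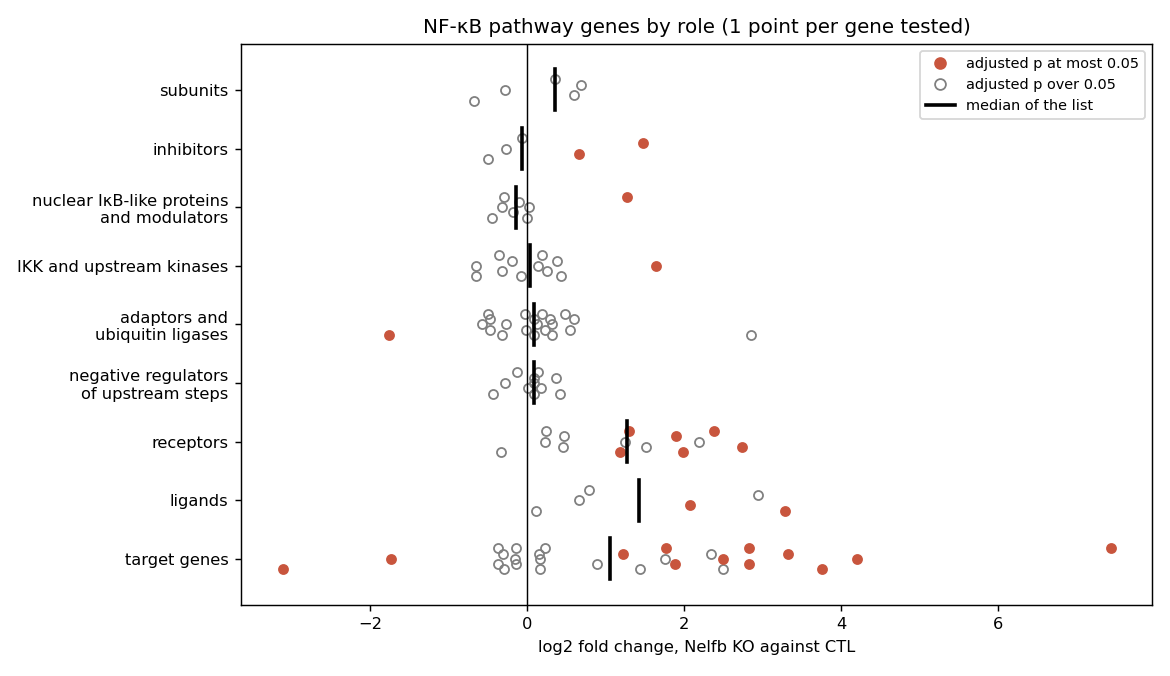
Log2 fold change (x axis) of each NF-κB pathway gene tested, by role (y axis), with genes at an adjusted p of at most 0.05 filled and the median of each list as a black bar. The medians of receptors (1.27), ligands (1.42, or 0.81 to 2.52 with 1 library left out) and target genes (1.06) lie to the right of those of the other 6 roles, which range from -0.14 to 0.35.

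The genes whose log2 values were most like those of Nfkbie over the 6 libraries, by Pearson's r, were Mx1, an interferon-induced GTPase (r = 0.9991, 0.204 CPM in CTL and 3.52 CPM in Nelfb KO cells on average), and Eml4, a microtubule-binding protein (r = 0.9975, 26.7 and 44.3 CPM). For Nfkbiz they were Pafah1b1, a dynein regulator (r = 0.9989, 206 and 234 CPM), and Aif1, a gene of macrophages and microglia (r = 0.9985, 0.111 and 2.29 CPM). With 6 points in 2 groups such values are common: 683 genes had an r over 0.95 with Nfkbie and 233 with Nfkbiz, and they are given as a description only.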

How the data were processed

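Libraries of 3 CTL and 3 Nelfb KO cultures were read from 1 table of 17924 genes, each column matched to a sample by its label, with 0 columns of values left unused. The values deposited by the authors are CPM, counts per 1e+06 over all listed genes with no correction for length and with 0.0001 added to every value. The submitters' processing notes name mm10, STAR 2.7 and Partek 9.0.20.0202; the study's methods describe the removal of genes with under 10 reads, and the counting step and its strand setting are not given in the sources used here. The smallest steps in the values gave the depth of 17.2 to 29.4 M reads (M, 1e+06), but only 75.8% to 78.9% of low values (20 reads or fewer) came out as whole reads (tolerance 0.1 read), so no count-based test was run.

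The offset was subtracted, values were scaled to a common depth of 22.3 M reads, and genes averaging 10 reads or more (0.448 CPM) were fitted with limma (3.58.1, R 4.3.3), two-sided, on log2(value + 1 read) with an abundance trend, with p adjusted by Benjamini and Hochberg over 16252 genes. Fold changes on this scale understate the change of low genes. A gene passed at an adjusted p of 0.05. The procedure was tested on simulated data. Positions are those of the authors' table (GRCm38), and gene IDs, exon lengths and exon overlaps come from GENCODE vM21. The alternatives were other pseudocounts, filters, scalings and variance models, a replicate block, and the leaving out of each library. The members and lists were chosen with earlier results of these data known. Named genes are the 10 members, Nelfb, up to 4 genes that passed with the largest fold and up to 2 abundant genes that did not in each list, the 2 genes most correlated with each member that passed, and markers that move with the groups. No label names a batch.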

Additional observations from a re-analysis of the deposited data

How the results depend on the processing

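Nfkbie kept its direction under all 17 alternatives and Nelfb passed in all 17. The number of genes that passed (2566, or 1824 with 2-fold) was 1126 and 684 with an ANOVA gene by gene, and lay between 434 and 3668, and between 426 and 2479, with each library removed in turn. The lowest of these came without Nelfb KO replicate 3 and the highest without CTL replicate 3. The number of the 10 NF-κB genes that passed, 2 in the main analysis, was 1 without the abundance trend, 1 with the ANOVA and 1 with the replicate block, in each case because Nfkbiz missed (adjusted p = 0.052, 0.060 and 0.083), and Nfkbiz also missed with median-of-ratios scaling (0.053) and quantile normalization (0.085), where Relb passed instead. It was 0 to 4 with 1 library left out, with 4 without CTL replicate 3 (Nfkb1, Nfkb2, Nfkbie and Nfkbiz), the fit in which 3668 of all genes passed. The number past 2-fold as well, 1 in the main analysis, was 0 to 1 with 1 library left out. Nfkbia, which never passed, changed sign, between -0.25 and 0.07 with 1 library left out. The cause of these changes was not tested. With the replicate block 2690 genes passed (2175 with 2-fold). Whether libraries of the same number form pairs could not be decided. The correlation of deviations from the group means was 0.52, -0.39 and 0.52 for libraries of the same number. CTL replicate 3 correlated almost alike with Nelfb KO replicate 2 (0.54) and replicate 3 (0.52). Deviations from a mean of 3 libraries are tied to each other, so these values cannot settle it. The median of the ligand list, 1.42, was 0.65 with a pseudocount of 1 CPM and 0.81 to 2.52 with 1 library left out.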
